A study of Mus musculus with 112 samples.

Results

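The aminoacyl-tRNA synthetases are the enzymes that join each amino acid to its tRNA before translation. The 37 genes described here were chosen by name, as every gene symbol in the count tables built from a one-letter amino acid code and "ars" with or without a closing 1 or 2, together with Eprs, Farsa and Farsb. They are 37 of 25209 genes counted, and 20 encode cytosolic and 17 mitochondrial enzymes. No measured value is part of that rule.

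The study asked how LSD1, a histone demethylase encoded by Kdm1a, and its partners RCOR1 and RCOR2 act in mouse embryonic stem cells (ESCs) and as these cells leave naive pluripotency. It comprised 112 RNA-seq libraries of the V6.5 ESC line and its mutants in 34 groups, of which 18 had 2 libraries and 13 had 4. Naive ESCs grown in 2i and LIF were wild type (WT, 11 libraries), LSD1 KO (promoter and first exon deleted, 6), LSD1 CI (LSD1 protein present but catalytically inactive, 4), RCOR1 KO (4), RCOR2 KO (4), RCOR1/2 DKO (4), MLL4 KO (2), MLL4/LSD1 DKO (4) and MLL4KO/LSD1CI (4), where MLL4, encoded by Kmt2d, is an enhancer H3K4 methyltransferase. Embryoid bodies (EBs) were grown as hanging drops for 6 days from WT (7), LSD1 KO (2), LSD1 CI (4), RCOR1 KO (4), RCOR2 KO (2) and RCOR1/2 DKO (4) cells. Cells in serum without 2i and LIF (4 days) and epiblast-like cells (EpiLCs, 2 days with activin and FGF2) were WT, LSD1 KO and LSD1 CI with DMSO and LSD1 KO with A485, an inhibitor of the acetyltransferases p300 and CBP (2 libraries each). A485 and DMSO were also compared in LSD1 KO ESCs and EBs, with WT EBs in DMSO (2 libraries each). The paper reports a far lower A485 dose for EBs, given during differentiation, than for ESCs, which were treated for about a day. Doxycycline (DOX) was added to LSD1 KO ESCs that carry no transgene (2 with and 2 without), to LSD1Res, which are LSD1 KO ESCs with a DOX-inducible tagged LSD1 (4 and 4), and to DKO + LSD1, which are RCOR1/2 DKO ESCs with the same transgene (4 and 4). Mutants were made as 2 or more clones, and the labels do not say which library came from which clone, so p-values measure the spread between these libraries, which may be technical in part.

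Each synthetase recognizes 1 amino acid, except that Eprs charges both glutamate and proline tRNAs, and Farsa and Farsb encode the alpha and beta subunits of the phenylalanine enzyme. Gars and Kars each give rise to a cytosolic and a mitochondrial form, whereas most other mitochondrial enzymes have their own gene, usually ending in 2. Mitochondrial glutamine tRNA is charged indirectly by Ears2 and the amidotransferase of Gatb, Gatc and Qrsl1, so Qars is cytosolic. Several cytosolic enzymes (those of Eprs, Iars, Lars, Mars1, Qars, Rars, Kars and Dars) sit in 1 multi-synthetase complex. Many cytosolic synthetase genes are known targets of ATF4, the transcription factor of the integrated stress response, a programme that raises amino acid supply when translation initiation is restrained. The 12 cytosolic genes counted as ATF4-listed were Aars, Cars, Eprs, Gars, Iars, Lars, Mars1, Nars, Sars, Tars, Wars and Yars, and the other 8 were Dars, Farsa, Farsb, Hars, Kars, Qars, Rars and Vars.

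Libraries held 17221431 to 58186717 counts, and every member had at least 68 counts in every library. The 9 libraries of WT ESC 1 to 3 and LSD1 KO ESC 1 to 6 had 0 counts on 101 genes of unplaced contigs, where the other 103 libraries had at least 4241, and this difference in alignment was a term in the ESC fit. LSD1 KO ESCs were therefore compared in effect with WT ESC 1 to 3, and the other ESC mutants with WT ESC 4 to 11. Levels are given as CPM, counts scaled to the library's normalized total. Kdm1a was at 164 to 244 CPM in WT ESCs and at 3.85 to 7.67 CPM in LSD1 KO ESCs, and DOX raised it from 11 to 38.8 CPM to 992 to 2395 CPM in LSD1Res and from 264 to 273 CPM to 1811 to 6136 CPM in DKO + LSD1. Rcor1 was at 5.02 to 11.7 CPM in RCOR1 KO ESCs (39.7 to 59.2 in WT), and Rcor2 at 0.76 to 4.93 CPM in RCOR2 KO ESCs (86.3 to 117 in WT). The libraries labelled RCOR2 KO EB held 40.2 and 46.8 CPM of Rcor2 against 112 to 136 in WT EBs, so its transcript was lowered less there than in ESCs. Kmt2d was at 153 to 400 CPM in the MLL4 mutants and at 316 to 869 CPM in WT ESCs, so these ranges overlapped. The summed naive markers (Pou5f1, Sox2, Nanog, Esrrb, Zfp42 and Klf4) were at 2204 to 2752 CPM in WT ESCs and 22.7 to 167 CPM in WT EBs, and none of them was at 0 in any library, while Fgf5 of the EpiLC markers was at 0 in 37 libraries. As these are bulk samples, fewer cells of a type and less RNA per cell cannot be told apart.

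The starts of several genes are shown because the results turn on the ATF4-listed members. As these were listed as known ATF4 targets, a match among them is not separate evidence for the list. The motif TGATGNAA, the core bound by ATF4 with C/EBP partners, was searched on both strands of the 300 bases from 250 before to 50 after each start in RefSeq's GRCm38.p6 table, in which 27 of the 37 members had an entry (13 cytosolic, 14 mitochondrial). It was found in 5 of the 13 cytosolic entries, all among the 8 ATF4-listed genes with an entry, and in 0 of the 14 mitochondrial entries, where 3.97% of all 32851 promoters held it. The matches lay in Aars at −112 to −105 and at 10 to 17, in Gars at −30 to −23, in Tars at −15 to −8, in Iars at 8 to 15 and in Yars at 4 to 11, counted from the start. Stretches with a match are printed 5′ to 3′ on the gene's strand with the match in capitals, followed for comparison by Sars and Kars at −60 to −1, the positions also printed for Gars and Tars, where neither gene holds a match.
Aars, chr8:111033702-111033761, plus strand: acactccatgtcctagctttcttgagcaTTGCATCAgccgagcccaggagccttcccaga
Aars, chr8:111033842-111033871, plus strand: cgggtcactTTTCATCAgagcgctctgatt
Gars, chr6:55037941-55038000, plus strand: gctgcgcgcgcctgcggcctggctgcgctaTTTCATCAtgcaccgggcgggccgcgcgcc
Tars, chr15:11399659-11399718, minus strand: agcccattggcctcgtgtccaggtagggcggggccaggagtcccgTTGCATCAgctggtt
Iars, chr13:49682130-49682159, plus strand: gtcagtaTTGCATCAcctccagacgcggaa
Yars, chr4:129189903-129189932, plus strand: agcTGATGCAAcccgacgggactagcgtga
Sars, chr3:108445260-108445319, minus strand: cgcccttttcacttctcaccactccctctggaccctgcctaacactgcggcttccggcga
Kars, chr8:112011355-112011414, minus strand: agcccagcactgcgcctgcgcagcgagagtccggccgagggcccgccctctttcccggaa
A match is a description of letters and not a measured binding site. No match says only that these letters are not in this window. The 10 members without an entry, among them Cars, Lars, Nars and Wars of the ATF4-listed genes, were not searched.

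In WT ESCs most cytosolic genes lay above most mitochondrial ones. Per kilobase of exon, the highest were Aars (alanine) at 233.5 ± 27.7 CPM per kilobase (SD, n = 11), Gars (glycine) at 214.6 ± 29.5, Kars (lysine) at 146.8 ± 25.2, Nars (asparagine) at 138.2 ± 27.5 and Eprs at 107.3 ± 12.6. The lowest 3 were all mitochondrial, Nars2 at 4.08 ± 0.76, Ears2 at 3.55 ± 0.33 and Wars2 (tryptophan) at 1.76 ± 0.26. Most neighbours in this order could not be separated, as the ranges of 33 of the 36 neighbouring pairs overlapped. Those of Cars above Wars, Hars above Yars2 and Ears2 above Wars2 did not. Lars2 (mitochondrial leucine) ranked 9th only through a very wide range, 22.9 to 224 CPM per kilobase. It was the least steady member over the series, from 52.0 to 6523 CPM with a median of 203.9 CPM, and it is therefore left out of the summed mitochondrial level. Iars2 was the next mitochondrial gene, at rank 21, between the cytosolic genes Wars and Hars and overlapping both.

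**Figure D1:**
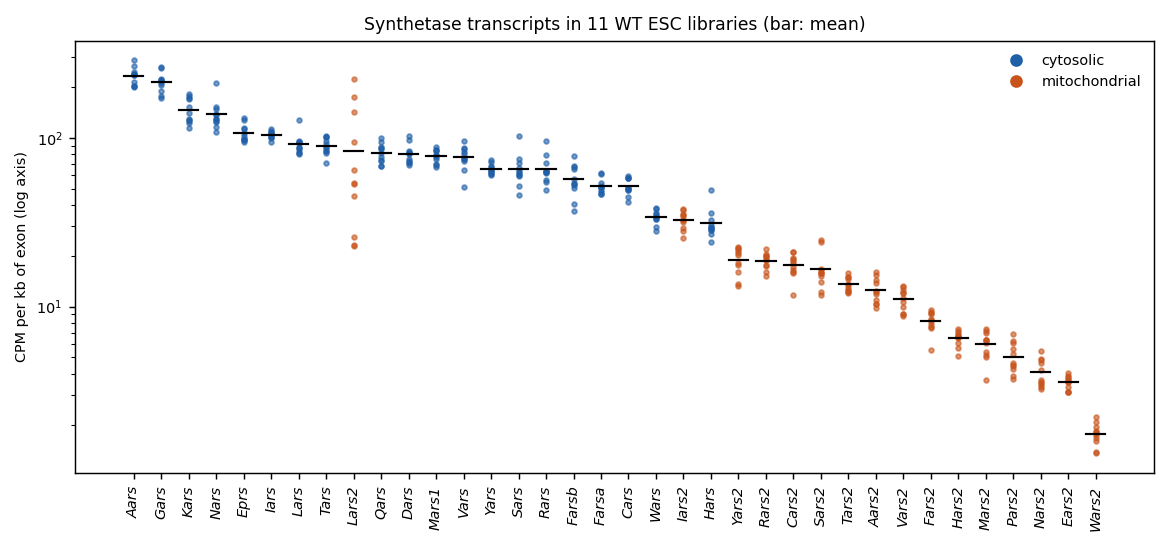
Level of 36 of the 37 synthetase genes in the 11 WT ESC libraries, in TMM-normalized CPM per kilobase of exon on a log axis, with 1 point per library, a bar at the mean, and colour for the compartment. Cytosolic genes fill most upper ranks, Lars2 spans 22.9 to 224 CPM per kilobase, and Wars2 is the lowest.

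Loss of LSD1 in naive ESCs came with lower levels of most synthetases. With an adjusted p below 0.01, 25 of the 37 members were lower and 0 higher (18.7% of all genes tested were lower at this rule), namely 15 of 20 cytosolic and 10 of 17 mitochondrial genes. All 12 ATF4-listed genes were lower, with a median log2 fold change of −0.65, whereas the other 8 cytosolic genes had a median of 0.01 and 3 of them (Vars, Farsb and Farsa) were lower. The medians were −0.41 over the cytosolic and −0.48 over the mitochondrial genes, beside 0.00 over all genes tested. The mitochondrial fall was not seen in the other LSD1 KO ESCs of the series. The summed mitochondrial level was 397 to 430 CPM in these 6 libraries and 464 to 613 CPM in WT ESCs. It was 503 and 524 CPM in LSD1 KO ESCs with DMSO and 464 and 516 CPM in those without DOX. No WT library stood beside the latter 2 groups. Aars2 and Cars also changed more than 2-fold (5.74% of genes were lower by both rules).

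Cars (cysteine), which lies at chr7:150743135-150785995 on the minus strand of mm9, was at 72.0 to 86.2 CPM in the 6 LSD1 KO libraries and at 134 to 192 CPM (median 162) in WT, without overlap, a log2 fold change of −1.08 ± 0.13 (standard error, adjusted p = 5.4e-09). Aars2 (mitochondrial alanine) was at 21.5 to 25.6 CPM against 36.1 to 59.0 CPM (median 44.7), also without overlap, with a log2 fold change of −1.14 ± 0.11 (adjusted p = 7e-11). Gars was at 221 to 243 CPM against 411 to 629 CPM (median 517), with a log2 fold change of −0.92 ± 0.14 (adjusted p = 1e-06). These 3 genes thus separated every LSD1 KO from every WT library. They were picked for their change in the same libraries, so the separation is in part built in. The share of all genes that separate the groups was not counted, here or below. Sars (serine) overlapped WT, at 137 to 189 CPM against 169 to 377 CPM, and its log2 fold change of −0.92 ± 0.15 (adjusted p = 2.5e-06) rests on WT ESC 1 to 3, which held 245 to 377 CPM. Kars, the most abundant cytosolic gene that was not lower, was at 346 to 389 CPM against 266 to 426 CPM. Wars, which interferon also induces, was at 70.0 to 88.4 CPM against 80.4 to 110 CPM and fell.

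In LSD1 CI ESCs, in which the protein is present without its activity, no member passed the test. With edgeR 0 of the 37 members passed in either direction (6.77% of all genes tested did), 5 had an unadjusted p under 0.05 and DESeq2 passed 0. The medians were −0.01 over the cytosolic and −0.10 over the mitochondrial genes, beside −0.03 over all genes. The summed level of the 12 ATF4-listed genes was 3964 to 4470 CPM in LSD1 CI, within the 3804 to 4740 CPM of WT, and 2696 to 3010 CPM in LSD1 KO. LSD1 KO and LSD1 CI libraries differ in alignment, so their contrast in the ESC fit runs through the WT libraries of each kind. By this contrast LSD1 KO was lower in 15 members (10.9% of all genes) and higher in 0. Among the 15 were 9 of the 12 ATF4-listed genes, and 2 of the 15 were lower by more than 2-fold (4.12% of all genes). Cars differed by −1.17 ± 0.17 (adjusted p = 1.7e-06), with LSD1 CI libraries at 162 to 191 CPM. Gars, at 465 to 751 CPM in LSD1 CI, differed by −1.07 ± 0.19 (adjusted p = 3.3e-05). Vars (valine, −0.98 ± 0.14, adjusted p = 2.1e-06) and Aars (−0.95 ± 0.09, adjusted p = 1.1e-09) followed. The share of all genes called that were lower was 59.0% in this comparison and 45.2% with DESeq2.

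The RCOR mutants differed in how many members passed. In RCOR1 KO ESCs edgeR passed 0 of 37 members (0.0227% of all genes passed), with 6 at an unadjusted p under 0.05 and 1 (Lars2) by DESeq2. In RCOR2 KO ESCs 2 mitochondrial members were lower (8.08% of genes), Nars2 at 10.3 to 12.2 CPM against 12.3 to 20.4 CPM (log2 fold change −0.51 ± 0.12, adjusted p = 0.0016) and Fars2 at 8.90 to 13.9 CPM against 10.4 to 18.1 CPM (−0.45 ± 0.13, adjusted p = 0.0087). Without RCOR2 KO replicate 1, 3 or 4 only 1 member passed. Neither single mutant was tested against the double mutant. In RCOR1/2 DKO ESCs 16 members were lower (19.2% of genes) and 1, Kars, was higher (17.8% of genes). All 12 ATF4-listed genes were lower with a median of −0.85, against −0.21 for the other cytosolic and −0.11 for the mitochondrial genes and −0.05 for all genes, and 4 fell by more than 2-fold (7.65% of genes).

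Those 4 were Sars, Cars, Nars and Gars. Sars (chr3:108227782-108248177, minus strand, mm9) was at 63.8, 66.6, 69.7 and 71.5 CPM in RCOR1/2 DKO and had a median of 232 CPM in WT, a log2 fold change of −1.70 ± 0.14 (adjusted p = 6.7e-13). Cars was at 60.6, 67.2, 70.5 and 74.6 CPM (−1.29 ± 0.12, adjusted p = 8.5e-12). Nars was at 143, 145, 151 and 152 CPM against 289 to 560 CPM (−1.18 ± 0.10, adjusted p = 4e-13). In these 3 genes, picked for their change, every double mutant library lay below every WT library, and the 4 libraries of the mutant were close together. Gars was at 233, 240, 244 and 264 CPM (−1.15 ± 0.13, adjusted p = 1.6e-09). Kars went the other way, at 437, 445, 447 and 448 CPM against a median of 328 CPM in WT (0.31 ± 0.08, adjusted p = 0.0021), so the lysine enzyme rose where the other gene with a dual product, Gars, fell. In the single mutants Sars was at 175 to 198 CPM (RCOR1 KO) and 155 to 194 CPM (RCOR2 KO), above every double mutant library. Their summed ATF4-listed levels were 3856 to 4175 and 3438 to 3997 CPM, against 2224 to 2329 CPM in the double mutant. The RCOR mutants share WT ESC 4 to 11 as controls, and LSD1 KO was set in effect against WT ESC 1 to 3. The WT ranges and medians in CPM cover all 11 libraries.

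**Figure D2:**
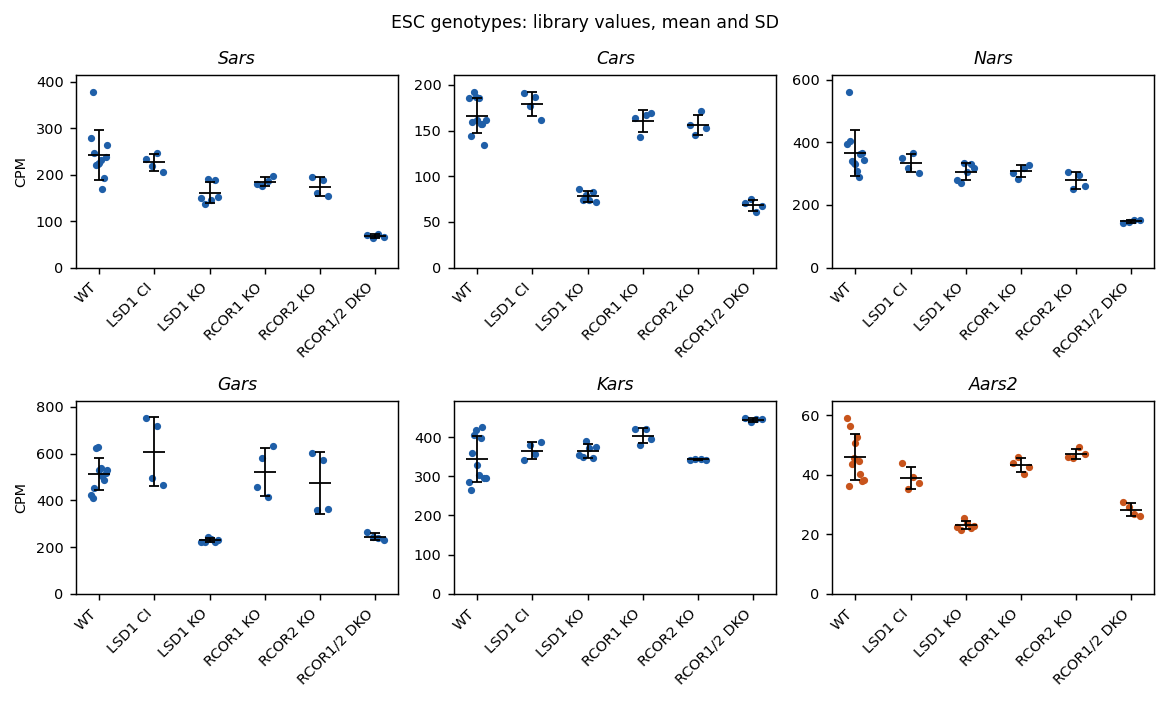
CPM of selected synthetase genes in each naive ESC library, by genotype, with 1 point per library and bars for the mean and SD. LSD1 KO and RCOR1/2 DKO lie below WT for Cars, Gars and Aars2, and Kars is highest in RCOR1/2 DKO.

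Among the MLL4 mutants, MLL4 KO was lower in 5 members (10.6% of genes), MLL4/LSD1 DKO in 16 (13.5%) and MLL4KO/LSD1CI in 14 (15.5%), with 0 higher in each and none past 2-fold. The cytosolic medians were −0.24, −0.35 and −0.25, beside −0.02, 0.01 and −0.01 over all genes. In MLL4 KO, Vars2 was at 27.0 and 34.3 CPM against 38.7 to 58.9 CPM (−0.65 ± 0.14, adjusted p = 0.00042), Aars at 551 and 583 CPM against 739 to 1069 CPM (−0.51 ± 0.08), Kars at 245 and 270 CPM (−0.44 ± 0.11) and Lars at 228 and 269 CPM against 315 to 500 CPM (−0.43 ± 0.10). In MLL4/LSD1 DKO the largest falls were in Cars, at 72.6, 80.4, 108 and 113 CPM (−0.82 ± 0.12, adjusted p = 3.8e-07), Lars (−0.67 ± 0.07), Nars (−0.64 ± 0.10) and Sars (−0.62 ± 0.13). In MLL4KO/LSD1CI they were in Vars2, at 27.8 to 33.8 CPM (−0.62 ± 0.11), Sars, at 114 to 187 CPM (−0.52 ± 0.13), Gars (−0.51 ± 0.13) and Aars, at 537 to 614 CPM (−0.49 ± 0.06). These counts depended on which WT libraries were used, since against WT 10 and 11 alone, the libraries listed beside these mutants, they were 2, 12 and 3. Without MLL4 KO replicate 1 the first count was 1, and without MLL4KO/LSD1CI replicate 1 or 3 the last was 7 or 6, with Sars and Gars lost in both cases.

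In EBs most members that passed as lower in LSD1 KO and RCOR2 KO were ATF4-listed. LSD1 KO EBs were lower in 13 members (10.9% of genes) and higher in 0, and 9 of the 13 were ATF4-listed, with a median of −0.68 over the 12 against 0.05 over the other cytosolic, −0.26 over the mitochondrial and 0.02 over all genes. Cars and Sars fell by more than 2-fold (5.42% of genes). Cars was at 50.1 and 56.8 CPM against 104 to 155 CPM in WT EBs (−1.18 ± 0.15, adjusted p = 4.2e-06), and Sars at 109 and 118 CPM against 179 to 292 CPM (−1.04 ± 0.15, adjusted p = 2.6e-05). Lars was at 134 and 162 CPM against 226 to 381 CPM (−1.0 ± 0.18, adjusted p = 0.00026), and Iars at 246 and 256 CPM against 362 to 510 CPM (−0.76 ± 0.12, adjusted p = 5.8e-05). These 4 genes, picked for their change, did not overlap between the groups, which is no separate result. Without either LSD1 KO library the count was 8, and without replicate 1 Lars no longer passed (adjusted p = 0.016). LSD1 CI EBs had 0 members past the threshold (5.07% of genes), 11 at an unadjusted p under 0.05 and 4 by DESeq2 (Cars, Qars, Sars and Iars), and RCOR1 KO EBs had 0 (0.00558% of genes), with 1 at an unadjusted p under 0.05 and 0 by DESeq2.

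RCOR2 KO EBs were lower in 7 members, all of them ATF4-listed (4.07% of genes). Cars was at 59.2 and 68.7 CPM (−0.93 ± 0.14, adjusted p = 0.00019), Yars (tyrosine) at 68.8 and 73.8 CPM against 111 to 140 CPM (−0.79 ± 0.13, adjusted p = 0.00035), Iars at 230 and 276 CPM (−0.76 ± 0.12, adjusted p = 0.00023) and Lars at 177 and 189 CPM (−0.72 ± 0.18, adjusted p = 0.0098). With 2 libraries this count was fragile. It was 3 without replicate 1 and 0 without replicate 2. The median of the ATF4-listed genes was −0.64, that of the mitochondrial genes 0.03 and that of all genes −0.02.

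In RCOR1/2 DKO EBs members passed in both directions. Neither the higher members nor the mitochondrial ones in either direction were above the share of all genes. There 13 members were lower (23.7% of genes) and 5 higher (24.0% of genes), 3 of the former by more than 2-fold (12.3% of genes). Of the ATF4-listed genes 9 of 12 were lower, with a median of −0.56, and of the 17 mitochondrial genes 4 were higher and 3 lower, with a median of −0.05 beside −0.03 for all genes. Cars was at 48.7, 50.3, 57.6 and 58.5 CPM (−1.16 ± 0.11, adjusted p = 1.9e-08), Sars at 103, 105, 105 and 109 CPM (−1.14 ± 0.12, adjusted p = 5.3e-08) and Nars at 146 to 151 CPM against 211 to 340 CPM (−0.82 ± 0.13, adjusted p = 1.5e-05). Their mitochondrial counterparts for cysteine and serine were higher. Cars2 was at 22.9, 23.8, 23.9 and 30.8 CPM against 12.2 to 14.7 CPM (0.89 ± 0.10, adjusted p = 9.1e-08), and Sars2 at 20.1 to 25.6 CPM against 12.7 to 17.2 CPM (0.58 ± 0.11, adjusted p = 0.00011). Kars was at 458 to 518 CPM against 290 to 380 CPM (0.54 ± 0.10, adjusted p = 5.8e-05). Lars2 was at 96.4 to 108 CPM against 64.6 to 453 CPM (−1.25 ± 0.34, adjusted p = 0.0039), within the WT range, and this call was lost without replicate 1, 3 or 4 (adjusted p = 0.014, 0.0114 and 0.0124) and turned to 0.28 (adjusted p = 0.355) against WT EB 6 and 7 alone.

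The EBs of these mutants also differed in cell type markers. The summed naive markers were at 22.7 to 167 CPM in WT EBs, 506 to 569 CPM in LSD1 KO, 213 to 290 CPM in RCOR2 KO and 977 to 1067 CPM in RCOR1/2 DKO EBs, while the 7 mesoderm and endoderm markers together were at 156 to 742, 47.8 to 50.6, 14.3 to 35.3 and 17.0 to 20.5 CPM. All 7 passed as lower in LSD1 KO (10.9% of genes) and RCOR1/2 DKO EBs (23.7%) and 5 in RCOR2 KO EBs (4.07%). The 5 neural markers (Sox1, Pax6, Nefl, Neurod1 and Tubb3) summed to 12.8 to 104 CPM in WT, 122 to 151 in LSD1 KO, 169 to 184 in RCOR2 KO and 90.4 to 113 CPM in RCOR1/2 DKO EBs. In RCOR1/2 DKO EBs 4 of them passed as higher (24.0% of genes). The part of this in the synthetase values was not tested.

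**Figure D3:**
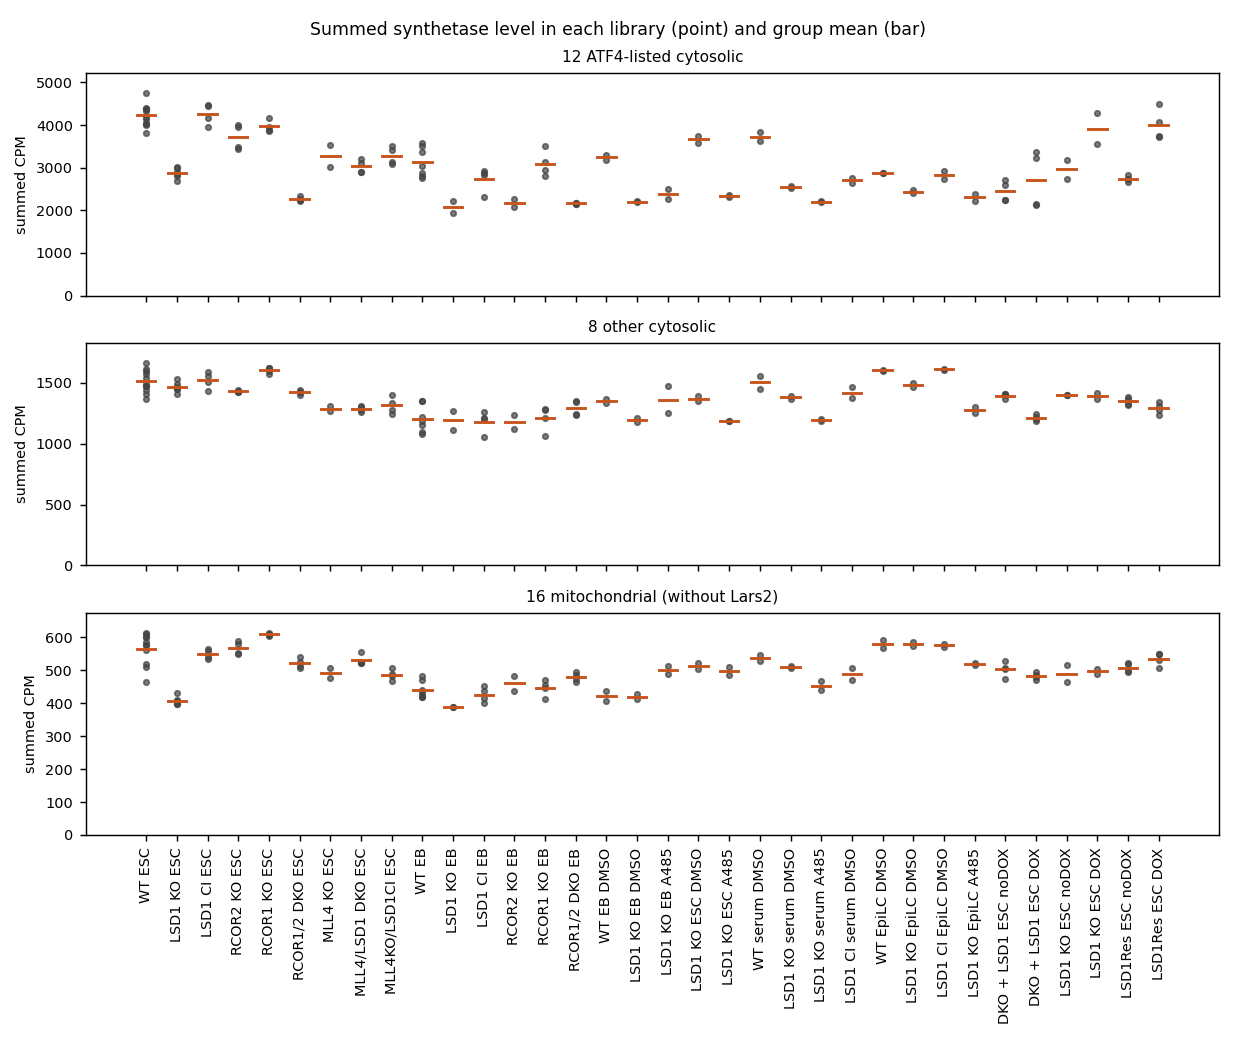
Summed CPM of the ATF4-listed cytosolic, the other cytosolic and the mitochondrial synthetases without Lars2 in every library, by group, with 1 point per library and a bar at the group mean. The ATF4-listed sum is 3804 to 4740 CPM in WT ESCs, 2696 to 3010 CPM in LSD1 KO ESCs and 2224 to 2329 CPM in RCOR1/2 DKO ESCs.

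WT cells differed between cultures as well. In WT EBs against WT ESCs 19 members were lower (26.5% of genes) and 1, Wars2, was higher (31.0% of genes). They were 10 of 20 cytosolic and 9 of 17 mitochondrial genes, with medians of −0.28 and −0.44 beside 0.07 over all genes. Cars2 fell past 2-fold (14.3% of genes did), from 21.6 to 39.0 CPM (median 33.3) in ESCs to 12.2 to 14.7 CPM in EBs (−1.24 ± 0.10, adjusted p = 2e-10). Aars was at 364 to 438 CPM in EBs against 739 to 1069 CPM (−0.99 ± 0.07, adjusted p = 2.7e-11). Aars2, at 18.4 to 23.9 CPM in EBs, changed by −0.97 ± 0.10 (adjusted p = 2e-08), so both alanine enzymes fell. Mars2 (mitochondrial methionine) was at 6.51 to 10.3 CPM against 10.6 to 21.1 CPM (−0.89 ± 0.14, adjusted p = 5.1e-06). The tryptophan pair moved apart, Wars2 from 5.94 to 9.78 CPM to 10.4 to 13.3 CPM (0.75 ± 0.11, adjusted p = 5.2e-06) and Wars from 80.4 to 110 CPM to 67.0 to 80.6 CPM (−0.32).

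In WT cells in serum 3 members were lower (12.0% of genes) and 0 higher. Fars2 (mitochondrial phenylalanine) was at 7.13 and 8.25 CPM against 10.4 to 18.1 CPM (−1.04 ± 0.17, adjusted p = 4.7e-05) and was the only 1 past 2-fold (7.80% of genes). Qars (glutamine) was at 126 CPM in both libraries against 169 to 248 CPM (−0.58 ± 0.12, adjusted p = 0.00046), and Aars2 at 28.5 and 30.1 CPM (−0.57 ± 0.16, adjusted p = 0.0066). Without either serum library 1 member passed. In WT EpiLCs 8 members, all cytosolic, were lower (10.7% of genes) and 3 higher (13.5% of genes), with medians of −0.39 over the cytosolic, −0.51 over the ATF4-listed, 0.02 over the mitochondrial and −0.04 over all genes. Sars was at 102 and 104 CPM (−1.09 ± 0.19, adjusted p = 9.1e-05, with 7.43% of genes lower by more than 2-fold), Nars at 164 and 173 CPM (−0.97 ± 0.17), Cars at 83.4 and 86.0 CPM (−0.97 ± 0.14) and Tars (threonine) at 146 and 154 CPM against 188 to 269 CPM (−0.59 ± 0.17). All 4, picked for their change, lay below the WT ESC range. Yars2 was higher at 47.6 and 47.8 CPM against 20.9 to 35.5 CPM (0.61 ± 0.17), as were Farsa at 134 CPM in both libraries against 84.9 to 113 CPM (0.57 ± 0.09) and Kars at 486 and 499 CPM (0.47 ± 0.14). Without EpiLC replicate 1 or 2 the count was 5 or 4, and neither Tars, Yars2 nor Kars passed without either library. The serum and EpiLC libraries carried DMSO and the WT ESC libraries did not, so DMSO and culture cannot be told apart here.

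Whether a mutation acted differently in EBs and ESCs was tested as an interaction. For LSD1 KO 11 members differed, 4 with a lower (11.1% of genes) and 7 with a higher response in EBs (13.9% of genes). Sars2 differed by 1.08 ± 0.21 (adjusted p = 3.9e-05) and was the only 1 past 2-fold (8.46% of genes), as LSD1 KO libraries were at 18.6 to 23.7 CPM against 22.5 to 47.2 CPM in WT ESCs but at 18.6 and 19.9 CPM against 12.7 to 17.2 CPM in WT EBs. Yars2 was at 14.2 to 19.0 CPM against 20.9 to 35.5 CPM in ESCs and at 25.9 and 29.5 CPM against 18.7 to 27.7 CPM in EBs (difference 0.92 ± 0.19, adjusted p = 0.00015). Within EBs neither Sars2 (adjusted p = 0.078) nor Yars2 (adjusted p = 0.107) passed. The ESC side used only LSD1 KO ESC 1 to 6, whose summed mitochondrial level without Lars2 was 397 to 430 CPM. That level was 503 and 524 CPM in LSD1 KO ESCs with DMSO and 464 and 516 CPM in those without DOX. The higher mitochondrial responses in EBs thus rest on ESC levels that the other LSD1 KO ESCs did not share. For Yars, the cytosolic counterpart of Yars2, the difference had the opposite sign (−0.51 ± 0.13, adjusted p = 0.0022). Qars was at 215 to 250 CPM in LSD1 KO ESCs, near WT, and at 109 and 129 CPM against 155 to 207 CPM in EBs (−0.58 ± 0.14, adjusted p = 0.00093). Without LSD1 KO EB replicate 1 the count was 7 and Qars was lost, and without replicate 2 Yars was lost. For RCOR1/2 DKO 6 members differed, 5 higher (15.8% of genes) and 1 lower (17.0% of genes), led by Cars2, at 33.1 to 34.4 CPM in the mutant ESCs (0.83 ± 0.14, adjusted p = 2.6e-06), and without EB replicate 2 the count was 10. For LSD1 CI edgeR passed 0 (4.74% of genes), with 8 at an unadjusted p under 0.05 and 1 (Cars) by DESeq2, and 1 without LSD1 CI ESC replicate 4. Cars itself was not among the members whose response to LSD1 KO or RCOR1/2 DKO differed.

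In serum every member that passed in the LSD1 mutants was cytosolic. LSD1 KO was lower in 13 members (9.26% of genes), including all 12 ATF4-listed genes (median −0.59, against −0.07 for the mitochondrial and −0.01 for all genes). LSD1 CI was lower in 11, all ATF4-listed (median −0.50, with −0.10 for the mitochondrial genes, and 2.86% of all genes lower). Neither had a member higher. Cars was at 134 and 139 CPM in WT, 62.0 and 70.9 CPM in LSD1 KO (−1.05 ± 0.09, adjusted p = 8.9e-06) and 72.6 and 74.3 CPM in LSD1 CI (−0.90 ± 0.09, adjusted p = 7.3e-05). Sars was at 165 and 184 CPM in WT, 83.1 and 87.4 CPM in LSD1 KO (−1.04 ± 0.07, adjusted p = 3.5e-06) and 95.1 and 99.4 CPM in LSD1 CI (−0.85 ± 0.07, adjusted p = 3.4e-05). Nars was at 259 and 271 CPM, 139 and 144 CPM (−0.92 ± 0.07) and 162 and 169 CPM (−0.69 ± 0.07). Kdm1a itself was at 133 to 137 CPM in LSD1 CI and 203 to 205 CPM in WT serum cells, and its part was not tested. In Cars, Sars and Nars, picked for their change, the catalytic mutant lay between WT and LSD1 KO without overlap. The mutants were not tested against each other. Cars and Sars were past 2-fold in LSD1 KO (3.34% of genes). Mars1, the cytosolic methionine enzyme, was at 157 and 162 CPM in LSD1 KO against 239 and 251 CPM (−0.63 ± 0.08), and Yars at 109 and 118 CPM in LSD1 CI against 166 and 171 CPM (−0.58 ± 0.07). Without LSD1 CI replicate 2 or WT replicate 1 the LSD1 CI count was 7 or 6. The summed naive markers were at 639 to 668 CPM in WT and 905 to 993 CPM in LSD1 KO serum cells, and their part was not tested.

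In EpiLCs LSD1 KO was lower in 10 members (11.6% of genes) and higher in 1 (13.3% of genes), with 0 past 2-fold and a cytosolic median of −0.20 beside 0.00 over all genes. Wars2 was at 4.14 and 4.33 CPM against 7.11 and 9.34 CPM (−0.95 ± 0.20, adjusted p = 0.0016), Eprs at 290 and 300 CPM against 398 and 412 CPM (−0.44 ± 0.05, adjusted p = 6.6e-06), Lars at 181 and 189 CPM against 233 and 245 CPM (−0.36 ± 0.06) and Nars at 133 and 139 CPM against 164 and 173 CPM (−0.30 ± 0.06). Ears2, whose mitochondrial enzyme charges glutamate as Eprs does in the cytosol, was higher at 30.0 and 31.5 CPM against 21.9 and 25.0 CPM (0.40 ± 0.10, adjusted p = 0.0069). The count was 3 without LSD1 KO replicate 1 and 6 without its replicate 2, and 7 and 6 without WT replicate 1 and 2. The call for Wars2 was lost without either LSD1 KO library or WT replicate 2, and that for Ears2 without either LSD1 KO library or WT replicate 1. LSD1 CI EpiLCs had 0 members past the threshold in edgeR (6.52% of genes), 4 at an unadjusted p under 0.05 and 0 by DESeq2, and 1 without WT replicate 1. The 4 EpiLC markers together were at 2717 to 2808 CPM in WT and 1542 to 1595 CPM in LSD1 KO EpiLCs.

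**Figure D4:**
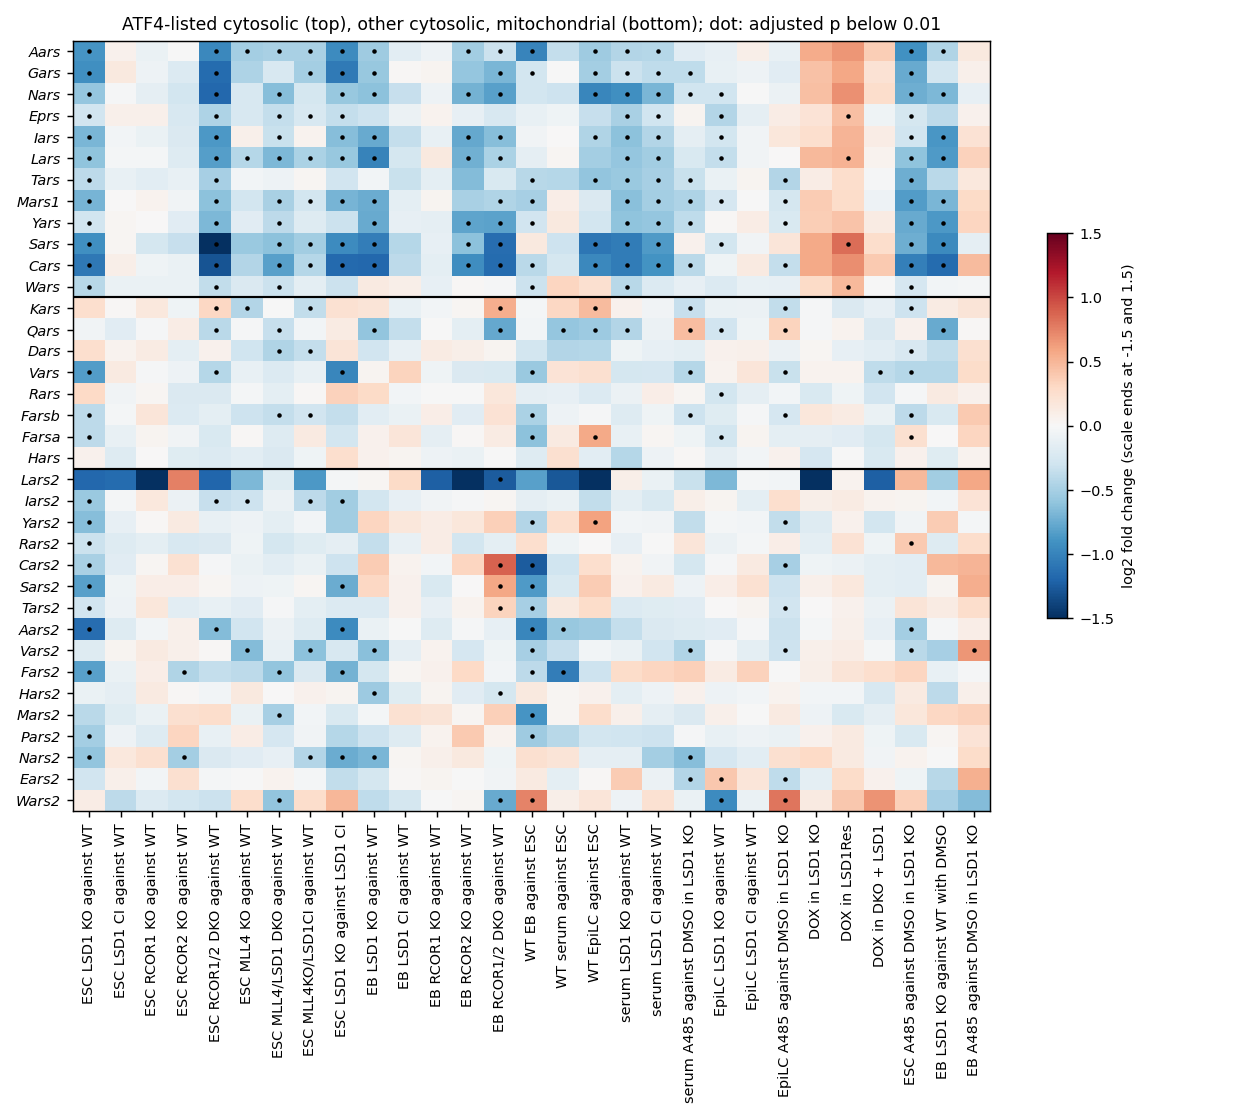
Log2 fold change of 36 of the 37 synthetases (rows, cytosolic above mitochondrial) in each mutant, culture and treatment comparison (columns), as colour, with a mark where the adjusted p is below 0.01. All 12 ATF4-listed genes carry the mark as lower in LSD1 KO ESCs, LSD1 KO serum cells and RCOR1/2 DKO ESCs, and 9 of the 12 in LSD1 KO and in RCOR1/2 DKO EBs.

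In LSD1Res some ATF4-listed synthetases rose with DOX. Without a pairing, 4 members rose (1.49% of genes), all ATF4-listed, and 0 fell. Sars went from 112 to 183, 104 to 178, 108 to 187 and 109 to 222 CPM in the 4 pairs of libraries (0.83 ± 0.12, adjusted p = 0.00025). Lars went from 175 to 205 CPM without to 256 to 295 CPM with DOX (0.52 ± 0.10, adjusted p = 0.0017), Wars from 64.2 to 79.0 CPM to 93.6 to 110 CPM (0.48 ± 0.09, adjusted p = 0.0021) and Eprs from 349 to 389 CPM to 477 to 543 CPM (0.45 ± 0.10, adjusted p = 0.0074). These 4 genes, picked for their change, did not overlap between the conditions, which is no separate result. Eprs no longer passed when any 1 of the 8 libraries was left out. Same-numbered libraries deviated together in this line, and with the replicate number as a block 13 members rose (8.71% of genes) and 1 fell (11.9% of genes). Cars rose by 0.70, Nars by 0.68, Aars by 0.66 and Gars by 0.55, and Kars fell by 0.21, at 368 to 429 CPM without and 306 to 379 CPM with DOX. Its direction was thus the reverse of its rise in RCOR1/2 DKO ESCs.

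LSD1 KO ESCs, which carry no transgene, moved in the same direction with DOX. Sars went from 107 to 160 and 153 to 226 CPM and Cars from 89.1 to 133 and 130 to 192 CPM in the 2 pairs. With edgeR 0 members passed (0.0178% of genes), 7 had an unadjusted p under 0.05 and DESeq2 passed 0. With the replicate block, whose pairing could not be decided from 2 pairs, Cars (0.57, adjusted p = 0.0022), Lars (0.48, adjusted p = 0.0046) and Gars (0.44, adjusted p = 0.0097) rose. The share of all genes that passed with the block was not counted for this line, and the 0.0178% belongs to the fit without it. The calls for Cars, Lars and Gars therefore cannot be set against all genes. The difference between the responses of LSD1Res and LSD1 KO was past the threshold for 0 members (0.0178% of genes), with 2 at an unadjusted p under 0.05 and 0 by DESeq2. The response of the members to DOX in LSD1Res therefore cannot be told apart from one to DOX itself. The ATF4-listed medians were 0.42 in LSD1 KO and 0.51 in LSD1Res, beside 0.02 and −0.01 over all genes, and the ATF4-listed sums went from 2746 to 3174 CPM to 3546 to 4286 CPM in LSD1 KO and from 2655 to 2820 CPM to 3723 to 4492 CPM in LSD1Res.

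In DKO + LSD1, where both RCOR proteins are missing, only Vars passed, and it fell (0.670% of genes). It went from 225 to 260 CPM to 168 to 203 CPM (−0.38 ± 0.08, adjusted p = 0.0097), and this call was lost without any 1 of 7 of the 8 libraries, the exception being DOX replicate 1. Sars showed that the pairs behaved differently, from 103 to 147 and 95.2 to 141 CPM in pairs 1 and 2 and from 119 to 119 and 120 to 118 CPM in pairs 3 and 4. Gars did the same, from 279 to 357 and 257 to 335 CPM in the former and from 230 to 237 and 240 to 239 CPM in the latter. With the replicate block, which the pairs bear out in this line, 2 members rose (6.02% of genes) and 6 fell (6.16% of genes). Cars rose by 0.37 and Wars2 by 0.71, and Vars (−0.38), Rars (−0.29), Yars2, Farsa, Hars and Qars fell. The difference from the response of LSD1 KO passed for 0 members in edgeR (0.00593% of genes), with 3 at an unadjusted p under 0.05 and 0 by DESeq2.

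**Figure D5:**
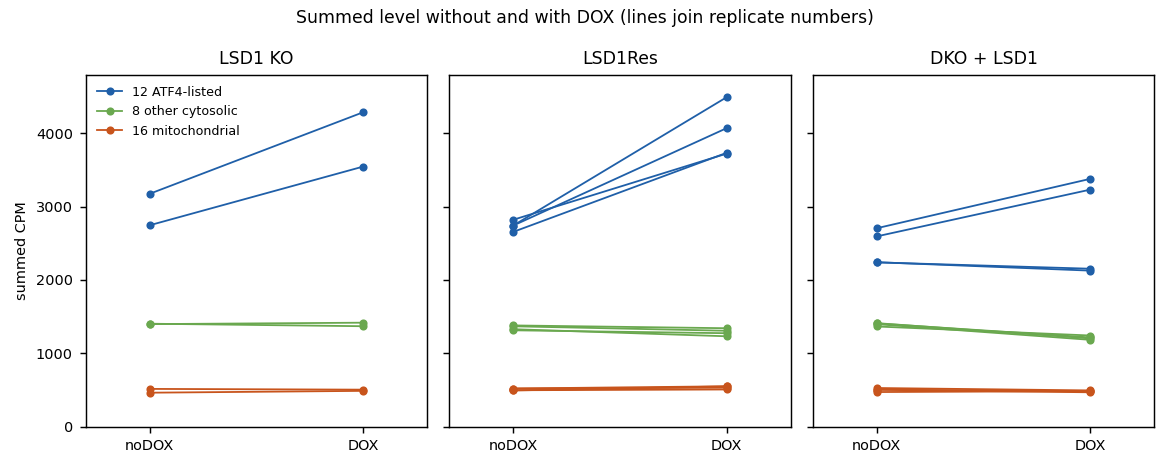
Summed CPM of the 12 ATF4-listed, the 8 other cytosolic and the mitochondrial synthetases without Lars2, without and with DOX in LSD1 KO, LSD1Res and DKO + LSD1 ESCs, with lines joining libraries of the same number. The ATF4-listed sum goes from 2655 to 2820 CPM to 3723 to 4492 CPM in LSD1Res, and in DKO + LSD1 it rises in 2 of the 4 pairs.

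Inhibition of p300 and CBP by A485 lowered the ATF4-listed genes in LSD1 KO ESCs. There 19 members were lower (25.1% of genes) and 2 higher (22.7% of genes), with all 12 ATF4-listed genes lower at a median of −0.73, beside −0.13 for the other cytosolic, 0.04 for the mitochondrial and 0.00 for all genes. Cars went from 156 and 168 CPM in DMSO to 78.1 and 81.4 CPM (−1.02 ± 0.07, adjusted p = 1.4e-10) and was the only 1 past 2-fold (11.7% of genes). Aars went from 803 and 851 to 439 and 442 CPM (−0.91 ± 0.07, adjusted p = 4.7e-10), Mars1 from 182 and 183 to 99.0 and 105 CPM (−0.84 ± 0.07) and Gars from 505 and 510 to 298 and 302 CPM (−0.76 ± 0.06). The 2 that rose were Rars2 (mitochondrial arginine), from 28.6 and 31.4 to 38.9 and 40.0 CPM (0.39 ± 0.08), and Farsa, from 72.2 and 73.0 to 85.8 and 86.3 CPM (0.24 ± 0.07), the latter lost without any 1 of the 4 libraries. The summed naive markers fell from 2373 to 2479 CPM to 1032 to 1039 CPM in the same libraries, and their part was not tested. The DMSO libraries of these LSD1 KO ESCs had ATF4-listed sums of 3585 to 3743 CPM, while the 6 LSD1 KO ESC libraries without DMSO had 2696 to 3010 CPM and WT ESCs 3804 to 4740 CPM. No WT library stood beside that experiment.

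With A485 in serum, 13 members were lower (16.9% of genes) and 1 higher (13.9% of genes). Among them were Nars2, from 15.6 and 16.7 to 9.55 and 11.1 CPM (−0.64 ± 0.15, adjusted p = 0.0043), Mars1, from 157 and 162 to 106 and 124 CPM (−0.46 ± 0.08), and Vars2, from 35.5 and 35.7 to 25.3 and 26.7 CPM (−0.45 ± 0.11). Qars rose from 93.0 and 94.5 to 122 and 135 CPM (0.46 ± 0.07, adjusted p = 0.00028). The count was 6 without either A485 library and 5 without either DMSO library, and Nars2 and Vars2 were lost in all 4 cases. In EpiLCs 13 were lower (22.7% of genes) and 2 higher (21.8% of genes). Cars2 went from 39.5 and 39.9 to 27.3 and 28.7 CPM (−0.50 ± 0.09, adjusted p = 0.00014), Tars from 136 and 142 to 96.2 and 108 CPM (−0.44 ± 0.07) and Ears2 from 30.0 and 31.5 to 22.7 and 24.3 CPM (−0.38 ± 0.10). Wars2, which LSD1 KO had lowered in EpiLCs, rose to 6.54 and 8.19 CPM (0.81 ± 0.20, adjusted p = 0.0029), and Qars rose from 100 and 112 to 127 and 140 CPM (0.34 ± 0.07, adjusted p = 0.00046). The comparison with WT and that with A485 share the same 2 LSD1 KO DMSO libraries. Opposite changes in the 2 comparisons, as in Wars2 and Ears2, are thus in part built in and no separate result. Without LSD1 KO EpiLC DMSO replicate 2 the count was 8. Ears2 was lost without any 1 of the 4 libraries, Wars2 without A485 replicate 2 or either DMSO library, and Qars without A485 replicate 2 or DMSO replicate 1. The EpiLC markers were at 230 to 256 CPM with A485 and at 1542 to 1595 CPM with DMSO.

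In EBs with DMSO, LSD1 KO was lower than WT in 9 members (12.4% of genes) and higher in 0, and 8 of the 9 were ATF4-listed. Cars was at 42.7 and 45.5 CPM against 96.3 and 97.2 CPM (−1.15 ± 0.12, adjusted p = 1.5e-05) and was alone past 2-fold (7.13% of genes). Sars was at 111 and 122 CPM against 223 and 224 CPM (−0.96 ± 0.12), Iars at 212 and 214 CPM against 382 and 389 CPM (−0.87 ± 0.11) and Yars at 67.2 and 70.4 CPM against 120 and 127 CPM (−0.86 ± 0.13). These libraries are separate from the LSD1 KO and WT EBs without DMSO, where both Cars and Sars were past 2-fold. Without LSD1 KO DMSO replicate 1 the count was 5. In the DMSO libraries the naive markers summed to 48.6 to 52.5 CPM in WT and 490 to 534 CPM in LSD1 KO. The mesoderm and endoderm markers summed to 474 to 613 and 29.3 to 42.2 CPM (7 of 7 lower, with 12.4% of genes lower). The neural markers summed to 15.8 to 23.3 and 120 to 131 CPM. The part of these markers was not tested. A485 in LSD1 KO EBs raised 1 member, Vars2, from 20.3 and 21.9 to 30.6 and 35.4 CPM (0.66 ± 0.14, adjusted p = 0.0043, with 7.61% of genes higher). As dose and exposure differed from those in ESCs, they cannot be told apart from culture. The class medians were positive, 0.18 over the cytosolic and 0.26 over the mitochondrial genes beside 0.03 over all, and Cars was at 56.7 and 64.2 CPM with A485, above both DMSO libraries. The count was 5 and 4 without A485 replicate 1 and 2 and 0 without either DMSO library, and Vars2 was lost without A485 replicate 2 or either DMSO library. The naive markers were at 1198 to 1235 CPM with A485 and 490 to 534 CPM with DMSO, and the neural markers at 49.8 to 56.1 and 120 to 131 CPM.

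Other genes of the pathway were read from lists. Of 19 integrated stress response genes, 19 were lower in LSD1 KO ESCs (median −1.44, with 18.7% of all genes lower), 18 in RCOR1/2 DKO ESCs (median −1.93, 19.2% of genes) and 0 in LSD1 CI ESCs (median 0.07, with 6.77% of genes past the threshold in either direction). Atf4 itself changed by −1.05 in LSD1 KO and −1.51 in RCOR1/2 DKO ESCs. Its targets Trib3, a pseudokinase, and Asns, asparagine synthetase, changed by −2.23 and −0.78 in LSD1 KO and by −2.37 and −0.77 in RCOR1/2 DKO ESCs. In EBs 12 of the 19 were lower in RCOR2 KO (median −1.48, 4.07% of genes), 11 lower and 1 higher in LSD1 KO (median −0.92, 10.9% of genes lower), 11 lower and 1 higher in LSD1 KO with DMSO (median −0.92, 12.4% lower) and 13 lower and 1 higher in RCOR1/2 DKO (median −1.03, 23.7% lower). In serum 16 were lower in LSD1 KO (median −1.11, 9.26% of genes) and 14 in LSD1 CI (median −0.81, 2.86% of genes), and in EpiLCs 5 in LSD1 KO (median −0.19, 11.6% of genes). WT EpiLCs had 11 lower than WT ESCs (median −0.93, 10.7% of genes), and WT EBs 11 lower and 1 higher (median −0.41, 26.5% of genes lower). With A485 in LSD1 KO cells, 17 were lower and 1 higher in ESCs (median −1.0, 25.1% of genes lower), 11 and 1 in serum (median −0.62, 16.9%), 6 and 3 in EpiLCs (median −0.23, 22.7%) and 4 and 1 in EBs (median 0.06, 13.3% of genes lower). With DOX 3 rose in LSD1Res (median 0.79, 1.49% of genes higher). This rise is not set here beside DOX in LSD1 KO ESCs without the transgene, so it is not separated from a response to DOX itself. The mutants of one culture share WT libraries in these values, except that LSD1 KO ESCs were set in effect against other WT libraries than RCOR1/2 DKO and LSD1 CI ESCs. One member, Ddit3, shares 68 exon bases with Mars1 on the opposite strand, and counting used strand.

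Genes that work with the synthetases were also read from lists. Of the 3 complex scaffolds 1, Aimp2, was lower in LSD1 KO ESCs (−0.77, with 18.7% of all genes lower) and 0 changed in RCOR1/2 DKO ESCs. Of 5 cytosolic elongation factors 2 were lower in each of these mutants (18.7% and 19.2% of genes). Of 9 mitochondrial translation factors 3 were lower (18.7% of genes) and 1 higher in LSD1 KO ESCs. In WT EBs against ESCs 7 were lower (26.5% of genes) and 1 higher (31.0%), with a median of −0.59. In RCOR1/2 DKO EBs 5 were higher (24.0% of genes) and 1 lower (23.7%), with a median of 0.37. Cars2, Sars2 and Tars2 were among the higher synthetases in those EBs. Of 10 related enzymes outside the 37, Xpot, which exports tRNA from the nucleus, was lower in LSD1 KO (−0.47) and RCOR1/2 DKO ESCs (−0.60). It rose with DOX in LSD1Res (0.45), a rise that is likewise not separated here from a response to DOX itself. Tarsl2, a second cytosolic threonyl enzyme, was higher by 0.62 in LSD1 KO, 0.45 in RCOR1/2 DKO and 1.15 with A485 in LSD1 KO ESCs, where Tars was lower, and it was also higher in LSD1 CI ESCs (0.52), where Tars did not pass. Of 6 interferon genes read beside Wars, 1 was lower (18.7% of genes) and 1 higher in LSD1 KO ESCs. In LSD1 KO EBs 3 were higher, while Wars, at 76.7 and 82.2 CPM against 67.0 to 80.6 CPM, did not pass. Of the 2 Myc genes Mycn was lower in ESCs of both mutants, LSD1 KO and RCOR1/2 DKO (18.7% and 19.2% of genes). A count of higher genes without a share of all genes beside it is no result about its list.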

How the data were processed

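The authors sequenced rRNA-depleted, strand-specific RNA libraries, aligned the reads to mm9 with STAR 2.7.9a, removed duplicates with Picard 2.25.5 and deposited 1 table of whole-number counts per gene for each library, made with strand-aware counting. Rn45s, the ribosomal precursor, took 8.06 to 24.9% of counts. The 112 libraries were grouped by their labels. The 37 members, the gene lists (ATF4-listed, stress response, scaffolds, elongation and mitochondrial translation factors, related enzymes, interferon and Myc genes, markers) and the tests were chosen with earlier results of these data known. Genes named with values were up to 4 per direction and comparison, taken by size of change among members with adjusted p below 0.01 and more than 2-fold change and then among the rest below 0.01, with the 5 highest and 3 lowest in WT ESCs, cytosolic and mitochondrial pairs that moved apart, and Wars. Other members were named from their counts. Values of 1 member are not reported here, and it stays in the counts, medians and sums.

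Each of 34 comparisons came from 1 of 9 fits with edgeR 4.0.16 (TMM scaling, filterByExpr by group, robust quasi-likelihood test) in R 4.3.3, with Benjamini-Hochberg adjustment over all genes tested in that fit. Fits with WT ESCs carried a term for the alignment difference. Errors of fold changes are standard errors. CPM values were TMM-normalized over all 112 libraries, without a pseudocount, and divided by exon length only to compare genes. The script was tested on simulated data. Paired deviations of same-numbered libraries had correlations of 0.35 to 0.43 in LSD1Res and 0.301 to 0.402 in DKO + LSD1, which by a limit of 0.1 in every pair were read as paired, with the pairing taken from these data and not from the labels. Other comparisons did not meet that limit or had 2 pairs. Alternatives were DESeq2 1.42.0, its size factors in edgeR, no filter, the compared groups only, each replicate of a group of 2 to 5 libraries left out (so none of WT ESCs, LSD1 KO ESCs or WT EBs), a replicate block, no alignment term, the WT libraries listed beside a mutant, halved counts and Rn45s left out. Leaving out WT ESC library 2 was added after seeing the data. Total depth limits precision for counting error only. The cytosolic and mitochondrial products of Gars and Kars were not separated, and sequences were read from RefSeq's GRCm38.p6 table, apart from the mm9 counts.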

Additional observations from a re-analysis of the deposited data

Results flagged for a closer look

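The responses of 17 member and mutant pairs differed between EBs and ESCs by the interaction test of edgeR (adjusted p below 0.01). For LSD1 KO 7 of 37 were higher and 4 lower, where 13.9% and 11.1% of all genes were. For RCOR1/2 DKO 5 were higher and 1 lower, where 15.8% and 17.0% were. The share of members was thus near or below that of all genes, and only slightly above it for the higher ones in LSD1 KO. Without LSD1 KO EB replicate 1 the LSD1 KO count was 7 in both directions together, so these counts are no result about the members. For LSD1 KO the log2 response in EBs exceeded that in ESCs by 1.08 for Sars2, 0.99 for Aars2, 0.92 for Yars2, 0.83 for Vars, 0.82 for Cars2, 0.51 for Wars and 0.4 for Farsa. It was lower in EBs by −0.58 for Qars, −0.58 for Dars, −0.51 for Yars and −0.5 for Hars2. For RCOR1/2 DKO it was higher in EBs by 0.83 for Cars2, 0.57 for Aars, 0.45 for Aars2, 0.37 for Tars2 and 0.3 for Iars2 and lower by −0.45 for Qars. The differences for Yars and Yars2 thus had opposite signs, and that for Qars was negative in both mutants, which share WT EB libraries.

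In 180 tests for 1 library far from the rest, each of a summed level or a member in 1 group, 9 passed, which is the 1 in 20 that chance alone gives. The values below are the gap of that library to its nearest neighbour as a share of the range of its group. The summed cytosolic level of LSD1 CI EB replicate 4 was 3361.6 CPM against 4035.3 to 4127.6 CPM (0.879). The summed mitochondrial level without Lars2 was 430.4 CPM in LSD1 KO ESC replicate 4 against 397.2 to 408.9 CPM (0.65) and 554.7 CPM in MLL4/LSD1 DKO ESC replicate 3 against 522.3 to 525.6 CPM (0.899). Nars was at 340.7 CPM in LSD1Res DOX replicate 4 against 289.2 to 295.7 CPM (0.875). Aars was at 430.4 CPM in RCOR1 KO EB replicate 1 against 358.3 to 368.5 CPM (0.858) and at 534.1 CPM in MLL4/LSD1 DKO ESC replicate 1 against 592.1 to 603.9 CPM (0.832). Cars2 was at 30.8 CPM in RCOR1/2 DKO EB replicate 1 against 22.9 to 23.9 CPM (0.871) and at 31.0 CPM in LSD1Res noDOX replicate 4 against 24.5 to 25.3 CPM (0.878). Lars2 was at 496.7 CPM in RCOR1/2 DKO ESC replicate 1 against 76.3 to 128.1 CPM (0.877).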

How the results depend on the processing

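Of the values of members taken by the naming rule under the alternatives, 1149 kept their direction and side of the threshold, 158 kept the direction but no longer passed, and 1 reversed, Lars2 in RCOR1/2 DKO EBs against WT EB 6 and 7 alone (0.28, adjusted p = 0.355). The cause of these changes was not tested, and counts limit the lowest members most. The median over all genes shifted by 0.12 with DESeq2 in LSD1 KO ESCs and by 0.12 in the LSD1 KO interaction without the alignment term.

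Class medians are log2 fold changes with no test. In LSD1 KO ESCs the cytosolic median was −0.34 with DESeq2 or its size factors and −0.29 without the alignment term, and the mitochondrial one −0.65 without WT ESC library 2, an alternative chosen after seeing the data, with which the mitochondrial interaction was 0.3. For LSD1 KO against LSD1 CI the cytosolic median was −0.29 with DESeq2 or its size factors and −0.26 with the compared groups only or without the alignment term. With the WT libraries listed beside the mutant, cytosolic and mitochondrial medians were −0.18 and 0.05 in MLL4 KO, −0.27 and 0.1 in MLL4/LSD1 DKO and −0.15 and 0.0 in MLL4KO/LSD1CI ESCs, and the mitochondrial one was −0.07 in LSD1 CI and 0.03 in RCOR1/2 DKO EBs. For A485 in EpiLCs the mitochondrial median was −0.13 with the size factors of DESeq2 or the compared groups only.

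With the replicate block, in comparisons where the numbers did not pair the libraries, the cytosolic median was −0.07 in RCOR1 KO and −0.56 in RCOR1/2 DKO ESCs, and the mitochondrial one −0.04 in RCOR2 KO ESCs, −0.05 in LSD1 CI EBs and 0.21 in the RCOR1/2 DKO interaction. The block moved the count of members past the threshold from 16 to 10 in MLL4/LSD1 DKO, 14 to 6 in MLL4KO/LSD1CI, 5 to 3 in MLL4 KO, 2 to 0 in RCOR2 KO ESCs, 15 to 6 for LSD1 KO against LSD1 CI, 0 to 2 in LSD1 CI and 0 to 1 in RCOR1 KO EBs, 3 to 1 in serum, 11 to 4 in EpiLCs, 0 to 1 in the LSD1 CI interaction, 0 to 3 for DOX in LSD1 KO, 9 to 14 for LSD1 KO EBs with DMSO and 1 to 5 for A485 in EBs. Beyond these and both paired DOX lines, the block moved no count by more than 1.5 times.

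Leaving out 1 replicate at a time gave cytosolic medians of −0.29 to −0.2 in MLL4 KO ESCs, −0.55 to −0.26 in LSD1 KO EBs, −0.15 to 0.15, −0.2 to −0.08 and 0.19 to 0.28 in the interactions of LSD1 KO, LSD1 CI and RCOR1/2 DKO, −0.5 to −0.4 and −0.38 to −0.29 in LSD1 KO and LSD1 CI serum cells, −0.23 to −0.14 in LSD1 KO EpiLCs, −0.24 to −0.2, −0.17 to −0.08, −0.43 to −0.38 and 0.05 to 0.21 for A485 in serum, EpiLCs, ESCs and EBs, −0.48 to −0.4 in LSD1 KO EBs with DMSO and −0.31 to −0.13 for DOX in DKO + LSD1 minus LSD1 KO. The mitochondrial medians were −0.09 to 0.17 in RCOR2 KO EBs, 0.15 to 0.2 in the RCOR1/2 DKO interaction, −0.17 to −0.04 in LSD1 CI serum cells, −0.05 to 0.02 in LSD1 CI EpiLCs, −0.22 to −0.1 and 0.18 to 0.43 for A485 in EpiLCs and EBs, −0.14 to 0.11 for DOX in LSD1 KO, 0.02 to 0.19 and −0.17 to 0.0 for its difference from LSD1Res and DKO + LSD1, and −0.18 to 0.0 in LSD1 KO EBs with DMSO.

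Other counts moved by more than 1.5 times were these. RCOR2 KO ESCs (2) gave 5 with DESeq2, 4 without WT ESC library 2, 1 with its size factors, halved counts, no filter or no Rn45s and 0 with the listed WT libraries or the compared groups. RCOR2 KO EBs (7) gave 11 with DESeq2, 4 with the listed WT libraries and 3 with the compared groups, and MLL4 KO (5) and MLL4KO/LSD1CI (14) gave 0 and 5 with the compared groups. LSD1 KO against LSD1 CI (15) gave 28 with the compared groups and 25 without the alignment term. WT serum (3) gave 5 with DESeq2, halved counts, no Rn45s or no WT ESC library 2, and the RCOR1/2 DKO interaction (6) gave 10 with halved counts or no Rn45s. DOX in LSD1Res (4) gave 8 with DESeq2 or the compared groups, and DOX in DKO + LSD1 (1) gave 0 with the size factors, compared groups, no filter or no Rn45s. LSD1 CI serum (11) gave 7 and LSD1 KO EBs with DMSO (9) 14 with the compared groups. A485 in EBs (1) gave 3 with DESeq2, 2 with its size factors or halved counts, 4 without the filter and 0 with the compared groups. LSD1 CI interaction (0) gave 1 without the alignment term or WT ESC library 2, and LSD1 CI EpiLCs (0) gave 1 without the filter.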
